A study of Homo sapiens with 8 samples.

Results

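A list of 9 early target genes of transforming growth factor beta (TGF-beta) and bone morphogenetic protein (BMP) signaling was examined in HepG2 cells, a human liver tumor cell line, upon ectopic expression of the epithelial transcription factor GRHL2. They were DLX2, KLF10, SMAD6, SMAD7, SKIL, ID1, ID2, ID3 and BAMBI, and all 9 listed genes were found among the 17561 genes of the expression table. Cells received either pGRHL2, in which an EEF1A1 promoter drives a flag-tagged GRHL2 cDNA together with a green fluorescent protein, or the control vector pcDNA3, and GRHL2 is thus not the sole difference between both plasmids. RNA was collected 48 h later from 4 libraries per plasmid, numbered 1 to 4, all from HepG2 cells grown with serum, insulin and dexamethasone. The genes were selected by name, with measured values of pGRHL2 against pcDNA3 already known. Their values in that comparison are therefore given as a description, without a p-value. Threshold calls among them, counted below, are descriptive too and are no test of the genes. In such bulk samples, fewer cells that express a gene and less RNA per cell cannot be told apart.

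TGF-beta and BMP ligands bind pairs of serine/threonine kinase receptors, which phosphorylate receptor SMAD proteins. These enter the nucleus with SMAD4 and act on target genes within hours. Several early targets feed back on the pathway: SMAD6 and SMAD7 are inhibitory SMADs that act at the receptors, BAMBI is a pseudoreceptor without a kinase domain, and SKIL (SnoN) is a co-repressor of SMAD complexes. KLF10, first known as TGF-beta-inducible early gene, is a zinc finger transcription factor. ID1, ID2 and ID3 are helix-loop-helix proteins that lack a DNA-binding region and hold back basic helix-loop-helix factors, and are classical BMP targets. DLX2 is a homeobox transcription factor of the Distal-less family known for its role in forebrain and craniofacial development. In the liver, BMP signaling is known for the control of hepcidin, and TGF-beta for growth arrest of hepatocytes and for fibrosis.

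The 8 libraries had medians between 6.71 and 6.73 on a log2 scale that the authors describe as normalized to transcript length, hereafter the level. The transfected gene GRHL2 had a difference of 9.48 ± 0.57 (log2, pGRHL2 minus pcDNA3, SD of 4 pairs). All 10 hepatocyte markers on the list used, ALB and HNF4A included, were measured, with levels from 9.83 to 17.1. Of 17 markers of fibroblasts, endothelial cells and leukocytes, 6 had a row in the table and 0 were called. These were COL1A1 (level of 5.82), PDGFRB (5.08), PECAM1 (5.43), VWF (1.91), CD79A (4.17) and LYZ (13.3), and PTPRC, CDH5, COL1A2 and COL3A1 were among those without a row. COL1A1, also a TGF-beta target, was higher in 4 of 4 pairs (0.20 ± 0.10, limma adjusted p of 0.084), and its part in the results below was not tested. For each gene, averaging pGRHL2 and pcDNA3 libraries of one number gave an identical value for all 4 numbers, and libraries were compared as 4 numbered pairs. Each difference (log2 FC) is the mean of the 4 pair differences ± their SD, and a library high in one plasmid is by construction matched by a low one in the other. The groups of a gene are therefore apart exactly when its 4 pair differences share a sign, and the gap is the pair difference nearest to 0. For the same reason, the SD within a group is equal in both plasmids and reflects the pair differences alone.

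The promoters of the genes are shown first, because DNA letters that SMAD proteins are known to bind can be read there. RefSeq promoter sequences (GRCh38.p14, from 250 bases before to 50 bases after the start of the gene) were matched for 8 of the 9 genes, KLF10 being the other. The start is that of RefSeq, which lies 3211 bases downstream of the GENCODE gene start used below for ID2, 373 bases downstream for SKIL and at most 11 bases downstream for the other 6. Those of DLX2 (chr2:172102851-172103150, minus strand), SMAD7 (chr18:48950916-48951215, minus strand) and ID2 (chr2:8681806-8682105, plus strand) are printed because these genes had the lowest differences among the 8, that of SMAD6 (chr15:66701986-66702285, plus strand) because it holds the palindrome GTCTAGAC, and that of BAMBI (chr10:28677271-28677570, plus strand) because it held more matches than the other 7. Capitals mark CAGAC or its reverse complement, GGCGCC and GTCTAGAC.
DLX2: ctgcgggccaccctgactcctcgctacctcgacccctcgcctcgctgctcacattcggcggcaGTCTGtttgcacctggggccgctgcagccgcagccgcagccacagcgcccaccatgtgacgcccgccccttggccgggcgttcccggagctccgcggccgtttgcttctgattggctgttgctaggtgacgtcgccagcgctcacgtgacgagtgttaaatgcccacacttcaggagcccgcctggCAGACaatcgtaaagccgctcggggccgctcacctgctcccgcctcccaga
SMAD7: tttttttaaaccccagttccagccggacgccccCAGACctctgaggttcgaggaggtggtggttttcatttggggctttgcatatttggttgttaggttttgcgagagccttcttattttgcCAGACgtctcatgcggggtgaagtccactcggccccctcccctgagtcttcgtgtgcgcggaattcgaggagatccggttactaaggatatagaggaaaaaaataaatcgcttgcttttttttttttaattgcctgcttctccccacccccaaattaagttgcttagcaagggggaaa
ID2: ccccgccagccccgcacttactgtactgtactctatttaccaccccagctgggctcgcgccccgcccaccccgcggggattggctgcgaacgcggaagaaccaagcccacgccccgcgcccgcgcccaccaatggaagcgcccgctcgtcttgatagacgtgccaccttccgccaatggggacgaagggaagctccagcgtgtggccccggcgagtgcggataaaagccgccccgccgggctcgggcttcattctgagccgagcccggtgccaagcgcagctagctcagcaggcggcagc
SMAD6: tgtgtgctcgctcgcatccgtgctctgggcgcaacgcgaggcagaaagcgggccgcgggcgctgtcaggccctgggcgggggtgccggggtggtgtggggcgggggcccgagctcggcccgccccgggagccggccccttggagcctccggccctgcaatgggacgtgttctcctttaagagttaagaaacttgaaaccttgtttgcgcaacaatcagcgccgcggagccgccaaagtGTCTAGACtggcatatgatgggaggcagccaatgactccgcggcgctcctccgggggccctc
BAMBI: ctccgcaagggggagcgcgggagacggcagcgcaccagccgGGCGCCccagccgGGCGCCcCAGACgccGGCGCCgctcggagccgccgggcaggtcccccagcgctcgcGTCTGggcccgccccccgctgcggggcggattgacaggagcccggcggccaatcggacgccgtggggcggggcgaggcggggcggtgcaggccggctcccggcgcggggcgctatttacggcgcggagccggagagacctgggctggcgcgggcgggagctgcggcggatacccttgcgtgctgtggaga

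The SMAD box CAGAC, searched on both strands, was found in 5 of the 8 promoters (DLX2, SMAD7, SKIL, BAMBI and ID3), and in 45% of 27305 promoters of 300 bases. The GC-rich letters GGCGCC were found in 2 of the 8 (SKIL and BAMBI), against 19% of all promoters and 28.8% of the 12829 promoters of genes in the expression table. For the SMAD box this second share was 43.6%. The octamer GTCTAGAC was found in SMAD6 alone of the 8, from 12 to 5 bases before the start, against 0.201% of all promoters. BAMBI held GGCGCC at 3 positions and the SMAD box at 2, and these matches did not overlap each other. The GRHL letters AACCGGTT were found in 0 of the 8 promoters and 0.117% of all, and the shorter core AACNNGTT, which includes them, in 0 of the 8 and 3.5% of all. Such matches describe the letters in these windows and were not tested as binding sites.

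DLX2 had the lowest difference of the 9 genes. Its levels in pcDNA3 libraries 1 to 4 were 7.55, 7.62, 7.64 and 7.49, and those in pGRHL2 libraries 1 to 4 were 6.76, 6.68, 6.67 and 6.82. The groups were thus separated by 0.66, more than the range of either group. The log2 FC was -0.84 ± 0.14 (SD, n = 4 pairs), corresponding to a pGRHL2 value of 0.558 times that of pcDNA3, and it ranked 2 from the lowest among all 17561 genes. DLX2 lies in a cluster with DLX1, on chromosome 2 from 172099438 to 172102900 (minus strand, hg38), and 0% of its exon bases are shared with another gene of GENCODE release 44. The neighbor DLX1 had a mean level of 7.06 and differed by 0.11 ± 0.16 (limma adjusted p of 0.483). Among the 5 other DLX genes of the table, 1 was called, DLX5, which rose by 0.15 ± 0.02 (limma adjusted p of 0.014) at a low level of 3.05, and the others had log2 FC between 0.01 and 0.11.

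**Figure D1:**
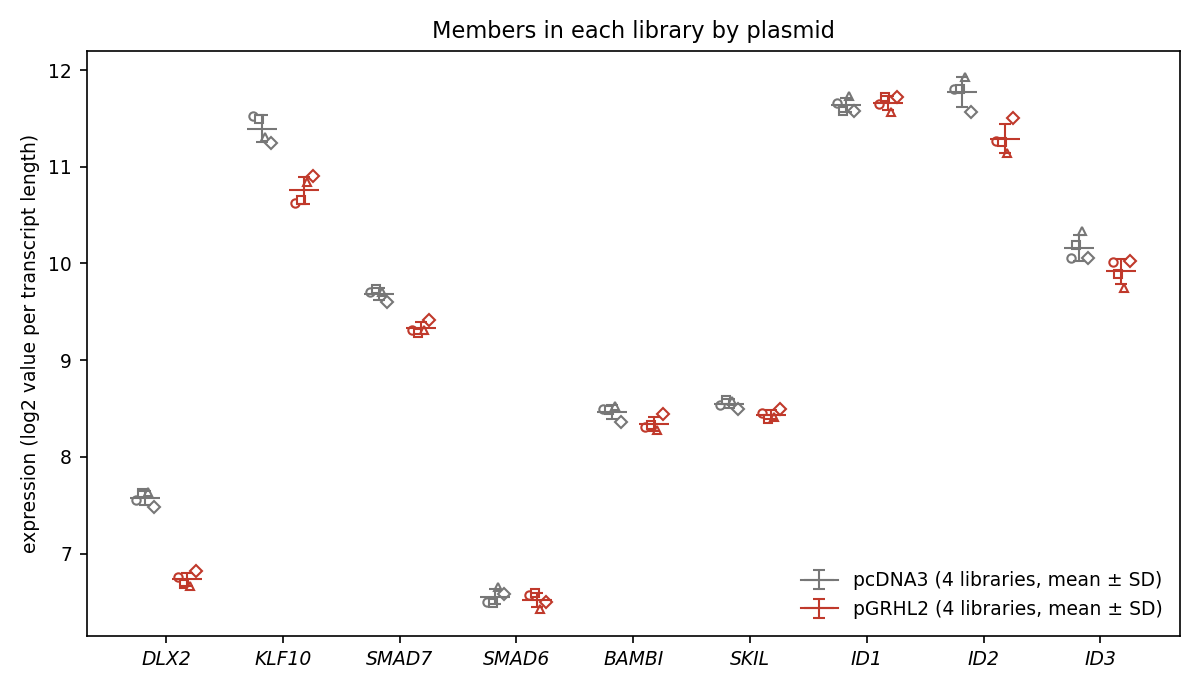
Level of each of the 9 genes (y axis, log2 value per transcript length) in the 4 pcDNA3 libraries (grey) and the 4 pGRHL2 libraries (red). Symbols mark libraries 1 to 4 (circle, square, triangle, diamond) and the bars give the mean ± SD, which is equal in both groups by construction. DLX2, KLF10 and SMAD7 show wide gaps between the groups, whereas SMAD6, BAMBI and ID1 overlap.

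KLF10 followed, at a much higher level. Its levels were 11.53, 11.50, 11.31 and 11.25 in pcDNA3 libraries 1 to 4, and 10.62, 10.66, 10.84 and 10.90 in pGRHL2 libraries 1 to 4. All pGRHL2 libraries were below all pcDNA3 libraries, with the widest distance in libraries 1 and 2. The log2 FC was -0.64 ± 0.27, a value of 0.642 times that of pcDNA3. KLF10 lies on chromosome 8 from 102648784 to 102655725 (minus strand). Its closest relative KLF11, also known as a TGF-beta-inducible early gene and not one of the 9, fell by 0.36 ± 0.05 (limma adjusted p of 0.014, lower in 4 of 4 pairs), from 8.24 in pcDNA3 to 7.88 in pGRHL2. The KLF11 call was kept without replicate 4 (0.049) and lost without each of the others (0.052 to 0.106), and 9.06% of its exon bases are shared with an overlapping gene, which counting without strand cannot separate.

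The inhibitory SMADs differed from each other. SMAD7, on chromosome 18 from 48919853 to 48950965 (minus strand), had levels of 9.70, 9.73, 9.71 and 9.60 in pcDNA3 and 9.32, 9.28, 9.31 and 9.42 in pGRHL2, libraries 1 to 4. The groups were separated by 0.18, and the log2 FC was -0.35 ± 0.12. SMAD6, on chromosome 15 from 66702236 to 66782849 (plus strand), had levels of 6.50, 6.49, 6.65 and 6.58 in pcDNA3 and 6.58, 6.59, 6.43 and 6.50 in pGRHL2. These overlapped, with pGRHL2 above pcDNA3 in pairs 1 and 2 and below it in pairs 3 and 4. The log2 FC of SMAD6 was -0.03 ± 0.15. SMAD6 had the lowest level of the 9 genes in both groups.

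BAMBI and SKIL, the pseudoreceptor and the SMAD co-repressor, had small differences. BAMBI, on chromosome 10 from 28677510 to 28682932 (plus strand), had levels of 8.50, 8.48, 8.53 and 8.37 in pcDNA3 and 8.31, 8.33, 8.28 and 8.45 in pGRHL2. It was lower in pairs 1 to 3 and higher by 0.08 in pair 4, where the groups overlap, and its log2 FC was -0.13 ± 0.14. SKIL, on chromosome 3 from 170357342 to 170396835 (plus strand), had levels of 8.53, 8.59, 8.58 and 8.50 in pcDNA3 and 8.45, 8.39, 8.41 and 8.49 in pGRHL2. Its groups were separated by 0.003 only, and its log2 FC was -0.11 ± 0.09. Related SMAD co-repressors were not called either: SKI had a log2 FC of 0.22 ± 0.16 and TGIF1 of 0.01 ± 0.10 (limma adjusted p of 0.165 and 0.980).

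The ID genes were the highest expressed of the 9, together with KLF10, and did not share one difference. ID2, on chromosome 2 from 8678845 to 8684461 (plus strand), had levels of 11.80, 11.81, 11.92 and 11.56 in pcDNA3 and 11.27, 11.26, 11.14 and 11.50 in pGRHL2. The groups did not overlap, although libraries 4 of both plasmids came within 0.06 of each other, and the log2 FC was -0.48 ± 0.30. ID2 shares 6.55% of its exon bases with ID2-AS1, whose reads cannot be told apart without strand. ID3, on chromosome 1 from 23557926 to 23559501 (minus strand), had levels of 10.06, 10.19, 10.33 and 10.06 in pcDNA3 and 10.02, 9.89, 9.75 and 10.02 in pGRHL2. Its log2 FC was -0.24 ± 0.26, with pair differences of only -0.04 in both pair 1 and pair 4. ID1, on chromosome 20 from 31605283 to 31606515 (plus strand), had levels of 11.65, 11.58, 11.73 and 11.58 in pcDNA3 and 11.65, 11.72, 11.57 and 11.72 in pGRHL2. Both groups of ID1 covered the same range, and its log2 FC was 0.03 ± 0.15. The fourth family gene, ID4, was weakly expressed (level of 2.16) and differed by 0.03 ± 0.04 (limma adjusted p of 0.558).

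The levels were ordered on the scale per transcript length. In pcDNA3 it ran from ID2 (11.77 ± 0.15, SD, n = 4) through ID1 (11.64 ± 0.07), KLF10 (11.40 ± 0.14), ID3 (10.16 ± 0.13), SMAD7 (9.69 ± 0.06), SKIL (8.55 ± 0.04), BAMBI (8.47 ± 0.07) and DLX2 (7.57 ± 0.07) to SMAD6 (6.56 ± 0.08). Libraries of ID2 and ID1 overlapped there, as did those of SKIL and BAMBI, while the other neighbors were apart. In pGRHL2, ID1 (11.66 ± 0.07) came above ID2 (11.29 ± 0.15) without overlap, and the order of the other 7 was kept. With replicate means adjusted, these SDs and overlaps reflect the pair differences and not the spread between replicate libraries. DLX2 and SMAD6 stood 0.21 apart in pGRHL2 (6.73 and 6.52), against 1.02 in pcDNA3.

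Counted together, 8 of the 9 genes had a log2 FC below 0. Of the 9, 6 (DLX2, KLF10, SMAD7, SKIL, ID2 and ID3) were lower in 4 of 4 pairs. With equal pair means this is the same as groups that do not overlap, and 10.5% of all genes were lower in this way. None of the 9 was higher with groups apart, against 13.4% of all genes. By limma, blocked on replicate number (adjusted p under 0.05 over 17561 genes), 4 of the 9 were called lower, DLX2, KLF10, SMAD7 and ID2, and 0 were called higher, against 0.501% and 1.69% of all genes. All 9 had a mean level of at least 5, and among the 10858 such genes 0.746% were called lower and 0.672% higher, while 13.6% were lower and 8.96% higher with groups apart. The median log2 FC was -0.24 over the 9 genes and 0.002 over all genes. Since values of this same comparison led to the list, nothing is read from these counts. The 4 calls held without replicate 4, only that of DLX2 was kept without replicate 1, 2 or 3, and that of ID2 was lost once a trend on level was removed.

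**Figure D2:**
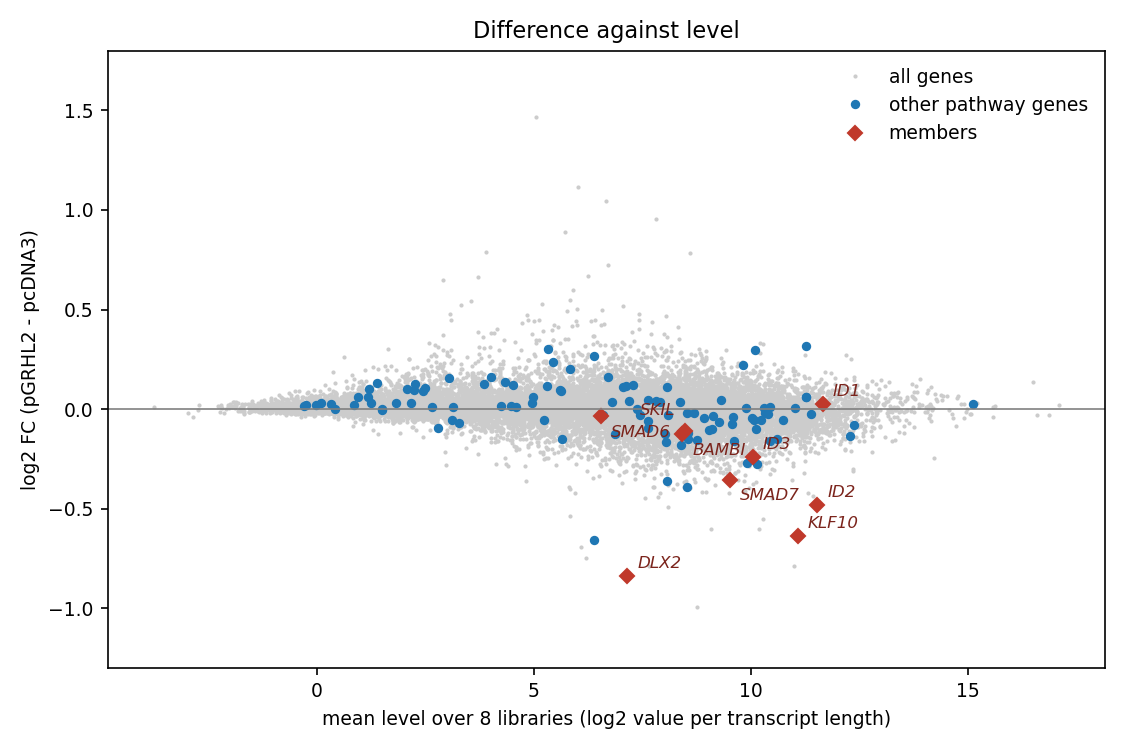
Log2 FC (y axis, pGRHL2 minus pcDNA3) against the mean level over 8 libraries (x axis, log2 value per transcript length) for all genes (grey), the other pathway genes (blue) and the 9 genes (red). DLX2 at -0.84, KLF10 at -0.64 and ID2 at -0.48 lie at the lower edge of the cloud, ID1 at 0.03 lies on the zero line, and 1 gene, the transfected GRHL2 at 9.48, is off the axis.

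The size of the differences varied by pair. In all 6 genes that were lower in every pair, the smallest difference was found in pair 4, while the largest was in pair 3 for DLX2, ID2 and ID3, in pair 2 for SMAD7 and SKIL, and in pair 1 for KLF10. Genes outside the 9 shared the small difference in pair 4. Among those called lower in the lists below, it was the smallest for SNAI1 (-0.37), JUNB (-0.12), FOS (-0.14) and FOSB (-0.33). For KLF11 the smallest was in pair 3 (-0.30). The median over the 9 genes was -0.18, -0.30, -0.40 and -0.06 in pairs 1 to 4. For comparison, the difference of GRHL2 itself was 8.97, 9.51, 10.26 and 9.18 in these pairs, with pair 3 first and pair 2 second in both, but with pair 4 before pair 1 for GRHL2. With 4 pairs this was not tested. ID2 and ID3 had their lowest values in pair 3 (-0.78 and -0.59), and ID1 also had its lowest there (-0.17).

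**Figure D3:**
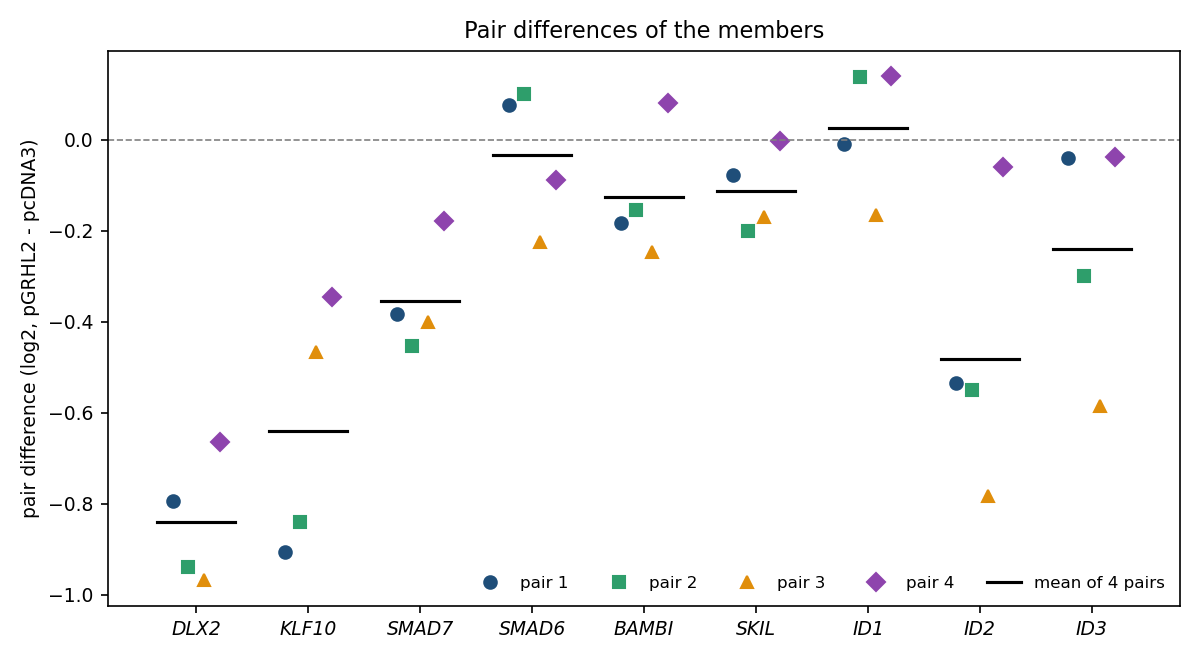
Pair differences (y axis, log2, pGRHL2 minus pcDNA3) of each of the 9 genes in pairs 1 to 4 (symbols and colors), with the mean of the 4 pairs as a black line. Pair 4 (purple diamonds) lies nearest to 0 in DLX2, KLF10, SMAD7, SKIL, ID2 and ID3, and is above 0 in BAMBI and ID1.

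Other genes of both pathways were then taken from lists. These held ligands, receptors, SMADs and their regulators, extracellular antagonists and other extracellular regulators, and further TGF-beta and BMP targets. Of 133 genes listed, 107 were in the table. After limma adjustment over the whole table, 5 of the 107 had higher and 3 lower calls, against 1.69% and 0.501% of all genes. The median log2 FC was 0.01, and 36 of the 107 had a level below 5. With groups apart, 27 were higher and 13 lower, against 13.4% and 10.5% of all genes. Called lower were the TGF-beta targets SNAI1, JUNB and KLF11, and called higher were the ligands BMP6 and BMP8A, the co-receptor RGMA and the BMP targets DLX5 and TFAP2A.

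Ligands and receptors had small differences. BMP6, a ligand that acts on hepcidin in the liver, rose from 5.18 in pcDNA3 to 5.48 in pGRHL2, by 0.30 ± 0.11 (limma adjusted p of 0.022, higher in 4 of 4 pairs). BMP8A rose by 0.13 ± 0.04 (limma adjusted p of 0.013) at a low level of 1.39, where the transformation used by the authors shrinks differences. Of 21 ligands in the table, 2 were called higher and 0 lower, with TGFB1 at -0.03 ± 0.34, BMP4 at 0.06 ± 0.03 and GDF15 at -0.08 ± 0.16, the last being the lowest of the list. Of 15 receptors and co-receptors, only RGMA was called, with a rise of 0.10 ± 0.02 (limma adjusted p of 0.031) at a level of 2.09. The type I and II TGF-beta receptors TGFBR1 and TGFBR2 had log2 FC of -0.02 ± 0.16 and 0.005 ± 0.10, and the lowest receptor value was that of ACVR1, at -0.16 ± 0.16 (limma adjusted p of 0.328).

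None of the 20 SMADs and SMAD regulators was called by limma. The receptor SMADs and SMAD4 had log2 FC from -0.05 (SMAD3) to 0.11 (SMAD9), and the list ran from -0.18 ± 0.15 for the ubiquitin ligase SMURF1 to the value of SKI given above. Among 13 extracellular antagonists and other extracellular regulators, LTBP genes included, 0 were called. Their lowest value was -0.27 ± 0.16 for follistatin (FST; limma adjusted p of 0.095, lower in 4 of 4 pairs), which binds activins, and their highest was 0.23 ± 0.12 for LTBP2.

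Of 22 further TGF-beta targets, 3 were called lower and 0 higher. SNAI1, a zinc finger repressor known for its part in epithelial-mesenchymal transition, fell by 0.66 ± 0.30 (limma adjusted p of 0.014), from 6.72 to 6.06. JUNB, an AP-1 subunit, fell by 0.39 ± 0.20 (limma adjusted p of 0.042), although 14.2% of its exon bases are shared with HOOK2. CDKN1A, which encodes the cell cycle inhibitor p21, had the highest value of the list, 0.32 ± 0.16 (limma adjusted p of 0.051). CCN2 and TGFBI, which encode secreted matrix proteins, had log2 FC of 0.005 ± 0.14 and -0.02 ± 0.08, each smaller than the spread between pairs. Of 16 further BMP targets, 2 were called higher and 0 lower, DLX5 and TFAP2A, the latter with a rise of 0.12 ± 0.03 (limma adjusted p of 0.018) at a level of 2.26 and with 16.8% of its exon bases shared with antisense genes. Hepcidin (HAMP) had a log2 FC of 0.01 ± 0.09, and MSX1 had the lowest value of the list, -0.17 ± 0.18 (limma adjusted p of 0.326). Of these 8 calls, 0 were kept without replicate 1 or without replicate 2, those of SNAI1 and BMP8A without replicate 3, and those of SNAI1, BMP8A, JUNB and KLF11 without replicate 4. Once the trend on level was removed, RGMA and JUNB lost their calls (limma adjusted p of 0.066 and 0.065).

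**Figure D4:**
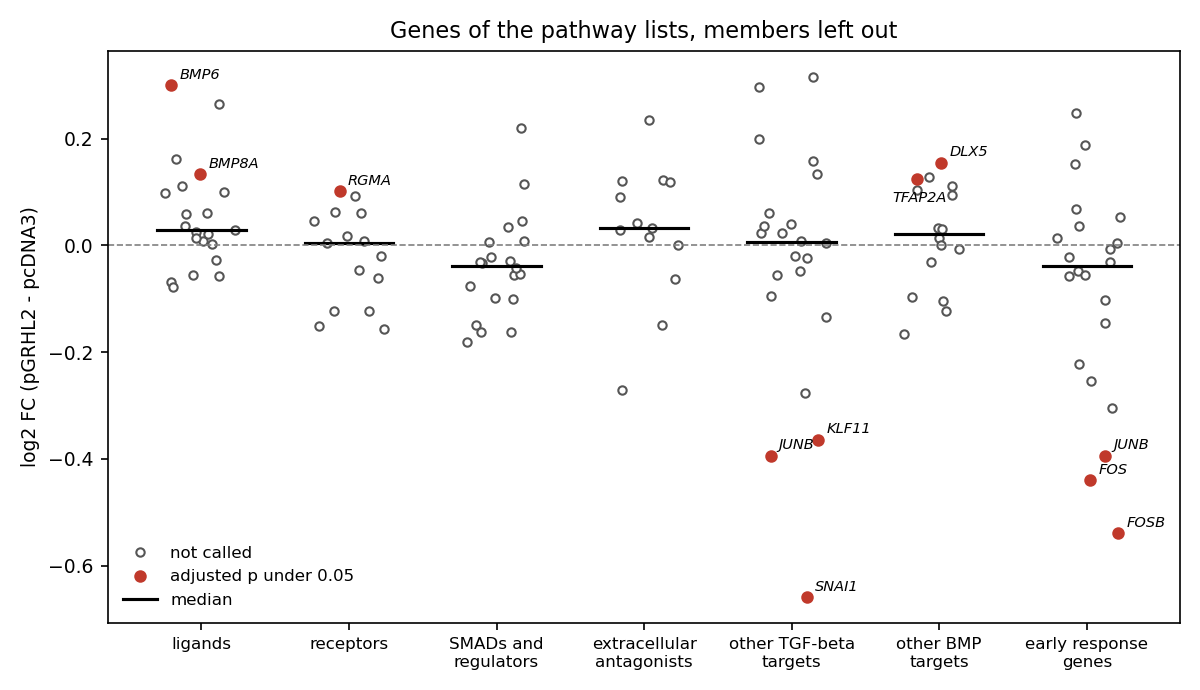
Log2 FC (y axis, pGRHL2 minus pcDNA3) of each gene in the 6 pathway lists and of early response genes (x axis), the 9 genes left out. The list labelled extracellular antagonists also holds other extracellular regulators, such as LTBP genes. Filled red points are genes with a limma adjusted p under 0.05, open points are not called, and lines are medians; SNAI1 at -0.66 is the lowest point, and most points lie within 0.2 of 0.

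Transcripts with a rapid response to serum and stress were compared as well, since several of the 9 genes are also known to respond to such signals. Of 22 early response genes in the table, 3 were called lower and 0 higher, against 0.501% and 1.69% of all genes. Their median log2 FC was -0.04. FOSB fell by 0.54 ± 0.20 (limma adjusted p of 0.0086) and FOS by 0.44 ± 0.25 (limma adjusted p of 0.045). JUNB, already counted among the TGF-beta targets, was the third. The FOS call was lost without replicate 1, 2 or 3 (limma adjusted p of 0.124 to 0.190) and once the trend on level was removed (0.066), and that of FOSB without replicate 3 (0.063). EGR1 and MYC had log2 FC of 0.07 ± 0.27 and -0.06 ± 0.15, and DUSP5 had the highest value, 0.25 ± 0.47. The median of this list was -0.12, -0.26, 0.01 and 0.14 in pairs 1 to 4, while the median of the 9 genes was lowest in pair 3. The 3 called genes were nevertheless lower in pair 3, at -0.75 (FOS), -0.64 (FOSB) and -0.44 (JUNB). Of 8 heat shock genes, only HSPA6 was called higher, with a rise of 1.47 ± 0.34 (limma adjusted p of 7.76e-04), against 1.69% of all genes. Of 10 interferon-stimulated genes 0 were called. The part of these genes in the differences of the 9 genes was not tested.

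The genes with pair differences most like those of DLX2, among 10858 genes with a mean level of at least 5, were CYP1A1, BCL3 and SNAI1, with root mean square distances of 0.19, 0.25 and 0.26 over the 4 pairs. Those most like KLF10 were CYP1A1, DNAJC27 and BCL3, at 0.16, 0.16 and 0.20. CYP1A1, a target of the aryl hydrocarbon receptor, had a log2 FC of -0.79 ± 0.24, BCL3, a nuclear IkB family protein, of -0.60 ± 0.12, and DNAJC27 of -0.79 ± 0.30. As the distance was taken in the comparison that led to the list, it is a description.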

How the data were processed

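RNA-seq values of 8 HepG2 libraries, 4 per plasmid, were analysed, with groups and replicate numbers taken from the labels. The authors aligned reads to hg38 with HISAT2 and counted those in exons without strand with HTSeq (2.2.1 and 0.9.1 in the submitters' processing notes). The deposited log2 values were made by the authors with the rlog transformation of DESeq2 (1.40.2 in those notes) and described as divided by mean transcript length. The study's methods give other versions of the aligner and of the package for rlog. A literal division by length in kb would put 776 genes above 32 on the rlog scale before division, more than read counts allow, and the values were therefore read as log2, with differences not rescaled by length. Rlog shrinks differences of weakly expressed genes. The table is named as FPKM, but 3.71% of its values are below 0. No counts were analysed here, so that depth and counting error are unknown. In 1 cell the value carried a stray character, which was removed, and 0 columns were left unused.

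In 17561 of 17561 genes, the pair means were equal for all 4 numbers, which shows that replicate means had been adjusted and makes a correlation check of the pairing void. Limma 3.58.1 (R 4.3.3; lmFit, eBayes with trend) was therefore fitted over all genes with the replicate number as a block, leaving 3 residual degrees of freedom instead of 6, with Benjamini-Hochberg adjustment and a threshold of 0.05 (2802 genes had an unadjusted p under 0.05). The script was tested on simulated data with the replicate means removed. The study calls the 4 libraries biological replicates.

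Members and lists were chosen with earlier results of these data known. Named were the 9 members, GRHL2, the called genes, and the 3 genes nearest to DLX2 and to KLF10. The genes with the lowest and highest value were named for the pathway lists and the early response list, but not for all other lists. Other genes were named after their values were seen, as known examples. Alternatives were a fit without the block, robust eBayes, arrayWeights, 2 scalings, a mean level of at least 5, removal of a trend on level (natural spline, 5 degrees of freedom), a threshold of 0.01 and leaving out each pair.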

Additional observations from a re-analysis of the deposited data

Results flagged for a closer look

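Among 21 results examined, 2 had a pair whose difference lay far from the other 3, where chance gives about 1 in 20. The difference of DLX5 was 0.177 in pair 2, while its other pairs lay between 0.146 and 0.150. That of TFAP2A was 0.162 in pair 4, while its other pairs lay between 0.109 and 0.114. Both genes were higher in all 4 pairs, and the cause was not tested. Neither GRHL2 nor any of the 9 genes had such a pair.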

How the results depend on the processing

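The depth behind the values is unknown. The differences of the 9 genes moved by less than the SD of their pairs in all 36 values under other weights, scalings and trend removal. The 2 scalings shift the log2 FC of all genes alike, by -0.004 and 0.013, and so could not exceed these SDs. Without a replicate, DLX2 ranged from -0.90 to -0.80, KLF10 from -0.74 to -0.55, SMAD7 from -0.41 to -0.32, ID2 from -0.62 to -0.38 and ID3 from -0.31 to -0.13, and the median of the 9 genes from -0.31 to -0.13. ID1 and SMAD6 changed sign within their spread (-0.01 to 0.09 and -0.08 to 0.03).

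Leaving out the replicate block gave 1821 higher and 1427 lower limma calls in all, 24 and 13 pathway genes, and 5 of the 9 genes, SKIL being added; this fit counts replicate means that the values no longer hold. At an adjusted p under 0.01, these counts were 77 and 10 in all, 0 and 0 in the pathway, and 1 of the 9 (DLX2). With arrayWeights, 503 genes were higher and 221 lower, and 13 pathway genes were higher. Rescaling to the same sum without GRHL2 gave 495 higher genes and 10 higher pathway genes, and shifted the median of all genes by 0.013. With a mean level of at least 5, 63 genes and 2 pathway genes were higher, and 43.8% of all calls were higher, against 77.1% without this filter. Of the pathway genes called higher before, BMP6 kept its call, while BMP8A, RGMA, DLX5 and TFAP2A lie below this level. Removal of the level trend gave 191 higher genes, and robust eBayes 8 higher pathway genes. The causes of these changes were not tested. When replicates were left out, from 79 to 156 genes were higher and 8 to 68 lower, 0 to 1 pathway genes were higher and 0 to 3 lower, and 1 to 4 of the 9 genes were lower. With 3 pairs the fit has fewer degrees of freedom. Of the called listed genes, 72 of 84 values under the other settings kept direction and call and 12 lost the call, as did 30 of 44 without a replicate; 0 reversed.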
